A study of Mus musculus with 6 samples.

Results

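The genes described here encode the protein assemblies through which MLL and its leukemic fusions act on transcription: the MLL and menin complex, DOT1L with its partners, the super elongation complex and the PAF complex, together with a set of chromatin readers and elongation factors. They were chosen by name, as 39 listed genes, and each of the 39 had at least 1 probe set annotated to that gene alone, out of 19938 genes named on the array. No member had a value at or under the floor of 16 set before taking log2, so all 39 were tested.

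The cells were a mouse leukemia line labelled MLL-AF10, after the fusion of MLL (Kmt2a) with AF10 (Mllt10), grown in RPMI with fetal bovine serum and WEHI conditioned medium. By their labels the 2 groups differ in treatment alone: 3 samples received vehicle and 3 received an IKK inhibitor at 0.5 µM. Total RNA of each sample was hybridized to 1 Affymetrix whole-transcript array. IKK kinases set NF-kB factors free by marking their IkB inhibitors for destruction. Not given in the sources used here are the inhibitor's name, the length of treatment, how the fusion was introduced and whether samples of a group were separate cultures. The p-values therefore rest on the spread of these samples alone, and that spread may be technical. Both groups carry the fusion and come from 1 line, so the data hold no cells without it.

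MLL is a histone methyltransferase that marks active promoters by methylating lysine residues of histone H3, within a core of WDR5, RBBP5, ASH2L and DPY30. Menin and the chromatin-binding protein LEDGF, the product of Psip1, tether MLL and its fusions to their target genes. The fusion partners of MLL are mostly subunits of assemblies that drive elongation. AF10 works with the histone methyltransferase DOT1L, while the AFF proteins scaffold the super elongation complex. That complex carries the ELL proteins and the kinase CDK9 and releases paused RNA polymerase II.

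The arrays had median intensities between 112 and 124, and their log2 values correlated across genes at 0.993 to 0.997 within a group and at 0.988 to 0.991 between groups. Markers of granulocyte and monocyte progenitors were bright, with a summed intensity over 10 genes of 17835 to 18376 with vehicle and 15147 to 15649 with the inhibitor. Of the 10, 6 were called lower at an adjusted p under 0.05 in limma, against 6.75% of all genes. Spi1 went the other way, from a mean of 2661 to 2931, and was not called. The summed intensity of 10 monocyte and macrophage markers went from between 10310 and 10697 to between 18825 and 20056. Of these 10, 9 were called higher, against 7.1% of all genes. The T cell (5 of 6 tested), B cell (4 of 5), erythroid (3 of 6) and stromal markers (5 of 5) were dim, with no group mean with vehicle above 254 and no call by limma, and 1 of them had an unadjusted p under 0.05. In bulk RNA, fewer cells of a type and less RNA per cell cannot be told apart, and the part of the shift between these markers in the changes below was not tested.

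Changes of the 39 genes with the inhibitor were few and small. Of the 39, 2 were called higher (Kmt2a and Hexim1) and 4 lower (Psip1, Wdr5, Ctr9 and Kdm1a) at a Benjamini-Hochberg adjusted p under 0.05 in limma, which is 15.4% of them. Over all 19847 genes tested, 13.9% were called, 7.1% higher and 6.75% lower, so the share of the 39 lies near the background and is not a result about these genes as a group. Bright genes were called more often: among genes above the median intensity 23.4% were called, against 6 of the 36 listed genes above it (16.7%). The largest change was 0.35 on the log2 scale. The 95% interval of the log2 fold change lay within 0.5 of zero on either side for 38 of the 39 genes, the exception being Kmt2a, whose upper bound was 0.51.

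**Figure D1:**
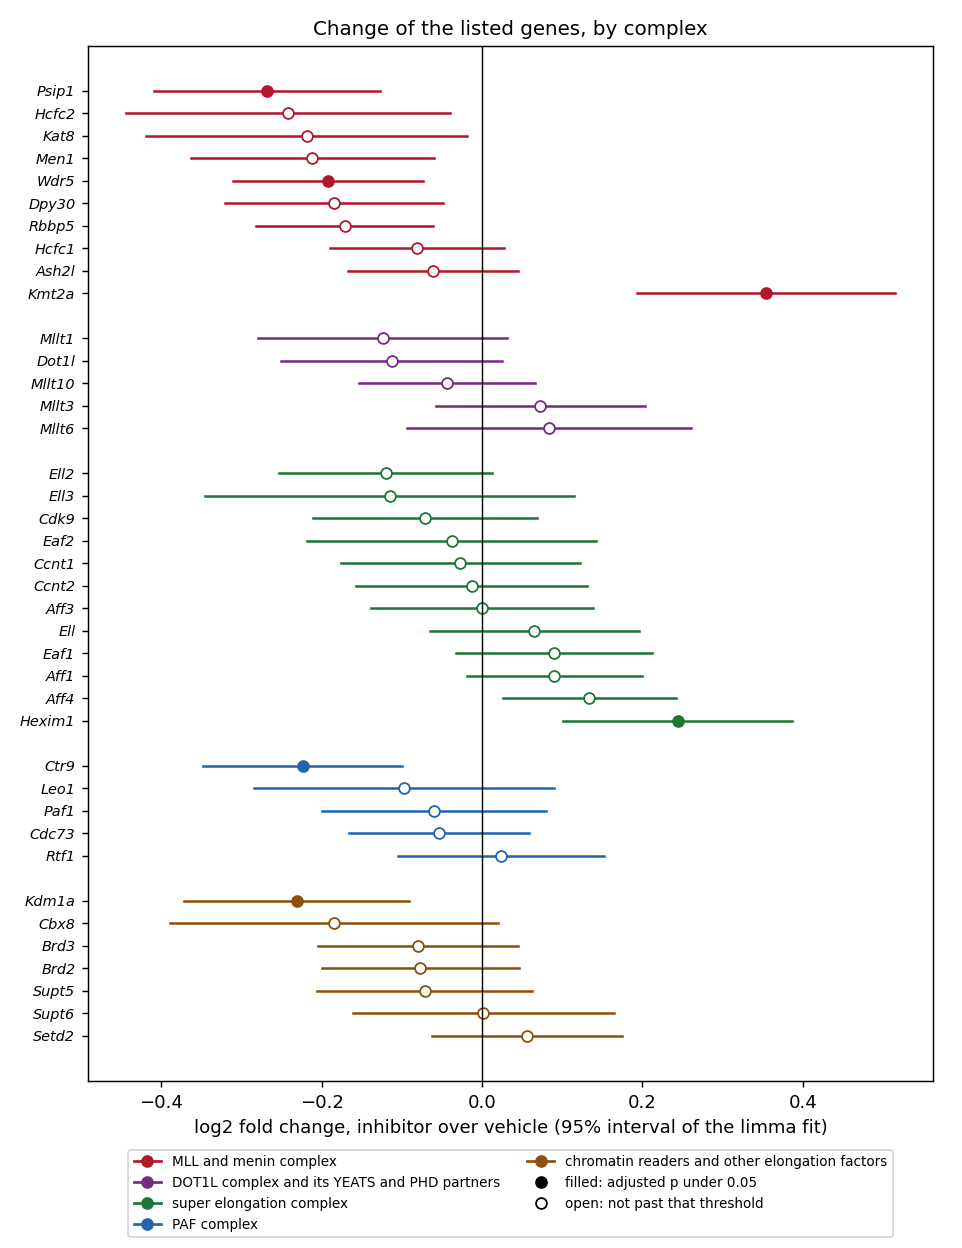
Log2 fold change of each of the 39 genes, inhibitor over vehicle (x axis), with the 95% interval of the limma fit as a line, grouped by complex and coloured by it. Filled points mark the 6 genes past an adjusted p of 0.05. In the MLL and menin complex Kmt2a stands at 0.35 and the other 9 genes between -0.27 and -0.06, while the 12 super elongation genes lie on both sides of zero.

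The direction of the values was more often down than up, with 28 of the 39 log2 fold changes below zero (71.8%), against 48.1% of all genes tested and 54% of those above the median intensity. Among 40 further genes of the related lists described below, 28 were also below zero (70%). The lean was thus not particular to the 39 genes. The median was -0.07 over the 39 genes and 0.01 over all genes. With every array centred on its median value, these medians were -0.11 and -0.03. The groups of arrays did not overlap for 18 of the 39 genes (46.2%), 13 of them lower and 5 higher with the inhibitor. Over all genes tested the background was 32.9% (17.2% lower and 15.7% higher), and among genes above the median intensity it was 52%, so this count does not set the 39 genes apart either.

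RefSeq windows of 250 bases before a start (GRCm38.p6) were at hand for 36 of the 39 genes, with 51 windows in all because some genes have several starts. They were searched on both strands for 6 motifs: the E-box CACGTG, the GC box GGGCGG, the ETS core CCGGAAG, the CCAAT box CCAAT, the TATA box TATAAA and the cAMP response element TGACGTCA. The windows of the 4 called genes that had one are printed, since these are the starts of genes whose transcripts passed the test. Capitals mark the matches, read as written or as the reverse complement, and no matches overlap each other.
Kmt2a, chr9:44881290-44881539, minus strand: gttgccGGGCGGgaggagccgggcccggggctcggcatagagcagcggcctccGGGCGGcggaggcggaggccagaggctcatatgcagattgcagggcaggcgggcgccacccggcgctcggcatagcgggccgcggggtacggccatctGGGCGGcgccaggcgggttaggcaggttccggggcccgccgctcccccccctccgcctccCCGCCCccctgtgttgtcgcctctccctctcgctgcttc
Hexim1, chr11:103116075-103116324, plus strand: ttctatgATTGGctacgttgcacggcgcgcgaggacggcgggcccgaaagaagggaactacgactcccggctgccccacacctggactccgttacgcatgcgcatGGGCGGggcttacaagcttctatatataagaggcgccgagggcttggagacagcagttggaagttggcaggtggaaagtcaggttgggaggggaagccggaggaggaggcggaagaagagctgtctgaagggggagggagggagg
Wdr5, chr2:27514897-27515146, plus strand: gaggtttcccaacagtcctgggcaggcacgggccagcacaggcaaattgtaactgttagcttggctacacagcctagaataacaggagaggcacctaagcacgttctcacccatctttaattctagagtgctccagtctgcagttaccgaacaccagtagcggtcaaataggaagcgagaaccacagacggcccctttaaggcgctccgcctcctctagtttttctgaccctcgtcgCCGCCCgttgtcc
Kdm1a, chr4:136602724-136602973, minus strand: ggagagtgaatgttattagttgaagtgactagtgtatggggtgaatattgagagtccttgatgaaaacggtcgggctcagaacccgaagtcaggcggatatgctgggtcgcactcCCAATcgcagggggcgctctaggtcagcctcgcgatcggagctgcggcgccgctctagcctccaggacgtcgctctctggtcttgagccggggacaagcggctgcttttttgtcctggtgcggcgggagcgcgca
The Kmt2a window is 76.8% G and C and holds 4 GC boxes, the Hexim1 window a GC box and a CCAAT box, the Wdr5 window 1 GC box and the Kdm1a window 1 CCAAT box. A GC box was found in 34 of the 51 windows (66.7%), against 42.6% of 21263 windows of protein-coding genes, and a CCAAT box in 22 (43.1%) against 35.4%. An ETS core was in 9 windows (17.6%, against 8.98%), those of Brd2, Ccnt1, Cdk9, Dot1l, Eaf1, Eaf2, Hcfc1, Mllt1 and Rtf1, none of them a called gene. The E-box, at which MYC and its partners bind, was in 3 windows (5.88%, against 6.63%), those of Aff4, Cbx8 and Hcfc2. The cAMP response element was in 2 windows (3.92%, against 1.92%), those of Cbx8 and Ell2, and the TATA box in 1 (1.96%, against 11.6%), that of Eaf2. These matches describe letters and are not evidence of binding.

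In the MLL and menin complex, the gene of the enzyme itself rose while the values of its 9 partners were lower. Kmt2a, which encodes MLL, had intensities of 623, 643 and 607 on the vehicle arrays and 779, 750 and 868 on the inhibitor arrays. The lowest inhibitor array lay above the highest vehicle array, and inhibitor array 3 was the highest of all. The means were 624 ± 18.0 and 799 ± 61.6 (SD, n = 3 each). The log2 fold change was 0.35 ± 0.07 (SE), with an adjusted p of 0.0176. Which part of the gene the probe set covers is not stated, so signal of the normal transcript and of the part of it kept in the fusion cannot be told apart.

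Psip1, the gene of LEDGF, had the largest fall of the 39 genes. Its intensity was 301, 332 and 336 with vehicle and 268, 273 and 263 with the inhibitor. All 3 inhibitor arrays lay below the dimmest vehicle array, vehicle array 1. Means were 323 ± 19.1 and 268 ± 5.38 (SD, n = 3 each) and the log2 fold change was -0.27 ± 0.06 (SE, adjusted p = 0.0288).

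Wdr5, the scaffold that holds the enzyme to its core subunits, read 1065, 1019 and 1088 with vehicle and 927, 942 and 906 with the inhibitor. The groups did not overlap, and the difference of the means, 1057 ± 35.1 against 925 ± 18.3 (SD, n = 3 each), was larger than either spread. Its log2 fold change of -0.19 ± 0.05 (SE) passed narrowly (adjusted p = 0.0487). Rbbp5, which binds WDR5 and ASH2L in the same core, read 841, 879 and 858 with vehicle and 757, 758 and 774 with the inhibitor, also without overlap. Its log2 fold change of -0.17 ± 0.05 just missed the threshold (adjusted p = 0.0553).

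Men1, the gene of menin, which joins MLL to LEDGF, had intensities of 686, 727 and 631 on the vehicle arrays and 581, 599 and 581 on the inhibitor arrays. The groups were separate, but vehicle arrays differed among themselves by about as much as the groups did. The log2 fold change was -0.21 ± 0.06 and did not pass (adjusted p = 0.0764). Dpy30, the gene of the smallest core subunit, had a log2 fold change of -0.19 (adjusted p = 0.0822) and Ash2l, whose product activates the methyltransferase, one of -0.06 (95% interval -0.17 to 0.04). Hcfc1 and Hcfc2, which encode host cell factors that link the complex to DNA-binding proteins, had log2 fold changes of -0.08 and -0.24. Hcfc2 read 721, 744 and 732 with vehicle and 620, 693 and 553 with the inhibitor, so its inhibitor arrays were spread more widely than its vehicle arrays, and it did not pass (adjusted p = 0.117). Kat8, the gene of the histone H4 acetyltransferase MOF, was the single member of the complex whose groups overlapped (log2 fold change -0.22, adjusted p = 0.149).

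In all, 1 of the 10 genes of the MLL and menin complex was called higher and 2 lower. That is 30%, against 13.9% of all genes and 23.4% of those above the median intensity. The median log2 fold change was -0.19. Of the 10, 8 had an unadjusted p under 0.05, against 27.2% of all genes and 41.8% of those above the median intensity. The groups did not overlap for 9 of the 10, against 32.9% of all genes and 52% of those above the median intensity. By array, the median deviation of the 10 genes from the mean of the vehicle arrays was between -0.01 and 0.03 on the vehicle arrays and -0.19, -0.12 and -0.22 on the inhibitor arrays.

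**Figure D2:**
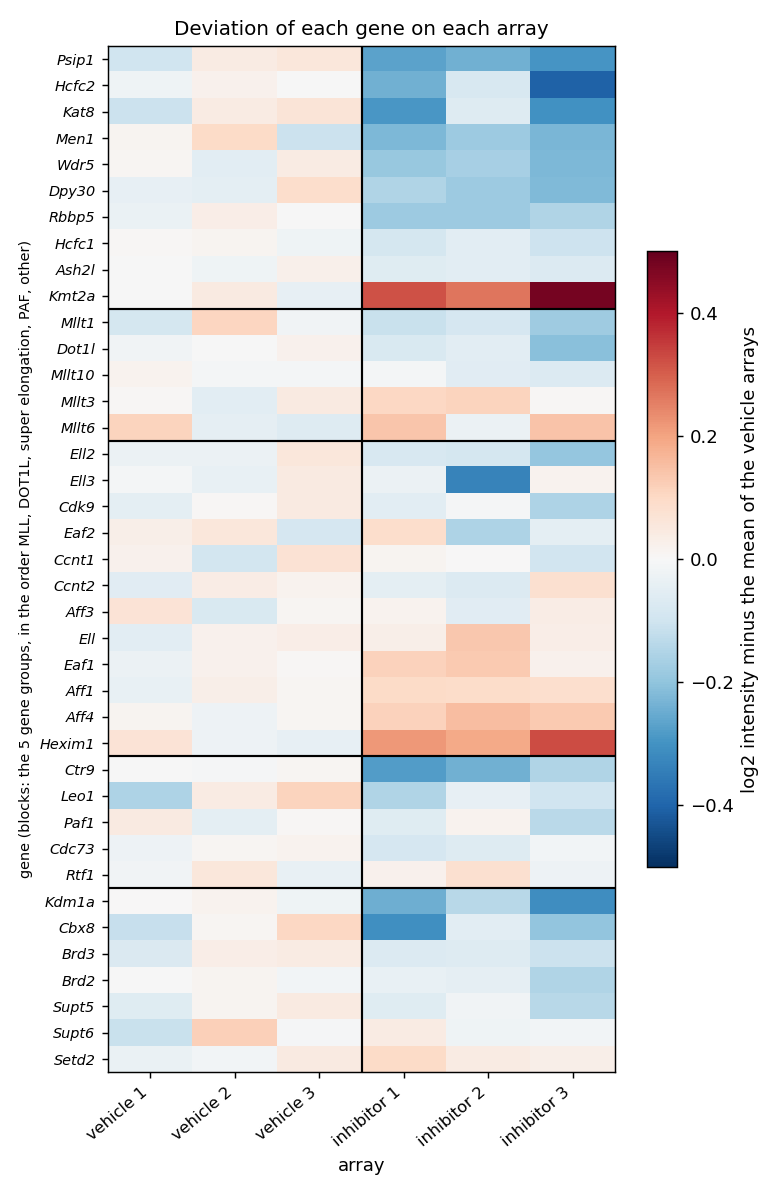
Log2 intensity of each gene (rows, in blocks by complex, ordered by log2 fold change) on each array (columns), minus the mean of the 3 vehicle arrays of that gene, in colour from blue (lower) to red (higher). The rows of the MLL and menin complex are blue on the inhibitor arrays except that of Kmt2a, with Hcfc2 and Kat8 paler on inhibitor array 2 than on the other 2, and the Hexim1, Aff4 and Aff1 rows are red.

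No gene of DOT1L or its partners was called, against 13.9% of all genes, and none of the 5 had an unadjusted p under 0.05 in limma. Dot1l, the gene of the histone H3 lysine methyltransferase on which MLL fusions depend, read 808, 817 and 832 with vehicle and 777, 790 and 708 with the inhibitor. The groups did not overlap, inhibitor array 3 lay farthest from the vehicle arrays, and the log2 fold change was -0.11 ± 0.06 (95% interval -0.25 to 0.03, adjusted p = 0.278). Mllt10, the gene of AF10 and the fusion partner in these cells, had the smallest change of the 5. It read 1307, 1283 and 1284 with vehicle and 1283, 1243 and 1232 with the inhibitor, overlapping groups with a log2 fold change of -0.04 and an interval of -0.15 to 0.07. As for Kmt2a, a fusion transcript cannot be told apart from the normal one.

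Mllt1 and Mllt3 encode the YEATS proteins ENL and AF9, which read acylated histones and join DOT1L as well as the super elongation complex. Mllt1 read 1095, 1255 and 1151 with vehicle and 1078, 1101 and 1031 with the inhibitor (log2 fold change -0.12, adjusted p = 0.287). Mllt3 read 258, 248 and 265 with vehicle and 276, 278 and 258 with the inhibitor (0.07, adjusted p = 0.472). The groups of both paralogs overlapped, as did those of Mllt6, the AF17 gene (0.08, adjusted p = 0.552).

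Among the genes grouped here with the super elongation complex, the gene of an inhibitor of its kinase rose and the kinase gene did not pass. Hexim1 encodes the protein that, bound to 7SK RNA, holds CDK9 and its cyclin inactive. Its intensity was 711, 667 and 659 with vehicle and 788, 773 and 851 with the inhibitor. Every inhibitor array was above every vehicle array, with means of 679 ± 27.9 and 804 ± 41.6 (SD, n = 3 each). The log2 fold change was 0.24 ± 0.06 (SE), with an adjusted p of 0.0409. Cdk9 itself read 1121, 1163 and 1195 with vehicle and 1116, 1155 and 1041 with the inhibitor, with overlapping groups and a log2 fold change of -0.07 (-0.21 to 0.07). The cyclin T genes Ccnt1 and Ccnt2, whose products activate CDK9, had log2 fold changes of -0.03 and -0.01.

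Aff4 encodes the main scaffold of the complex. It read 1165, 1134 and 1161 with vehicle and 1250, 1284 and 1263 with the inhibitor, and its groups were far apart relative to their spread. The change was small, at 0.13 ± 0.05 on the log2 scale, and did not pass (adjusted p = 0.106, unadjusted p = 0.0217). The paralogous scaffold gene Aff1, the AF4 gene, read 1794, 1877 and 1850 with vehicle and 1966, 1959 and 1949 with the inhibitor, again without overlap (0.09, adjusted p = 0.274). A dimmer probe set of Aff1 gave 0.14 with overlapping groups. Aff3 was dim, at 76.2 to 84.0 with vehicle and 77.1 to 82.4 with the inhibitor, with no difference of the means (-0.0003).

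The ELL elongation factors and their EAF partners went both ways and none passed. Ell2 read 730, 731 and 776 with vehicle and 705, 701 and 652 with the inhibitor (-0.12, adjusted p = 0.228), without overlap. Eaf1 read 952, 984 and 976 with vehicle and 1052, 1061 and 986 with the inhibitor (0.09, adjusted p = 0.332), also without overlap. The log2 fold changes of Ell, Ell3 and Eaf2 were 0.07, -0.12 and -0.04, and Ell3 and Eaf2 were dim, with means of 101 and 49.6 with vehicle. Over the 12 genes grouped here the median log2 fold change was -0.01 and 7 values were below zero. Hexim1, the gene of the kinase inhibitor, was the 1 gene called (8.33%, against 13.9% of all genes). The groups did not overlap for 5 genes (41.7%, against 32.9% of all genes and 52% of those above the median intensity), of which Hexim1, Aff4, Aff1 and Eaf1 were higher and Ell2 lower.

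**Figure D3:**
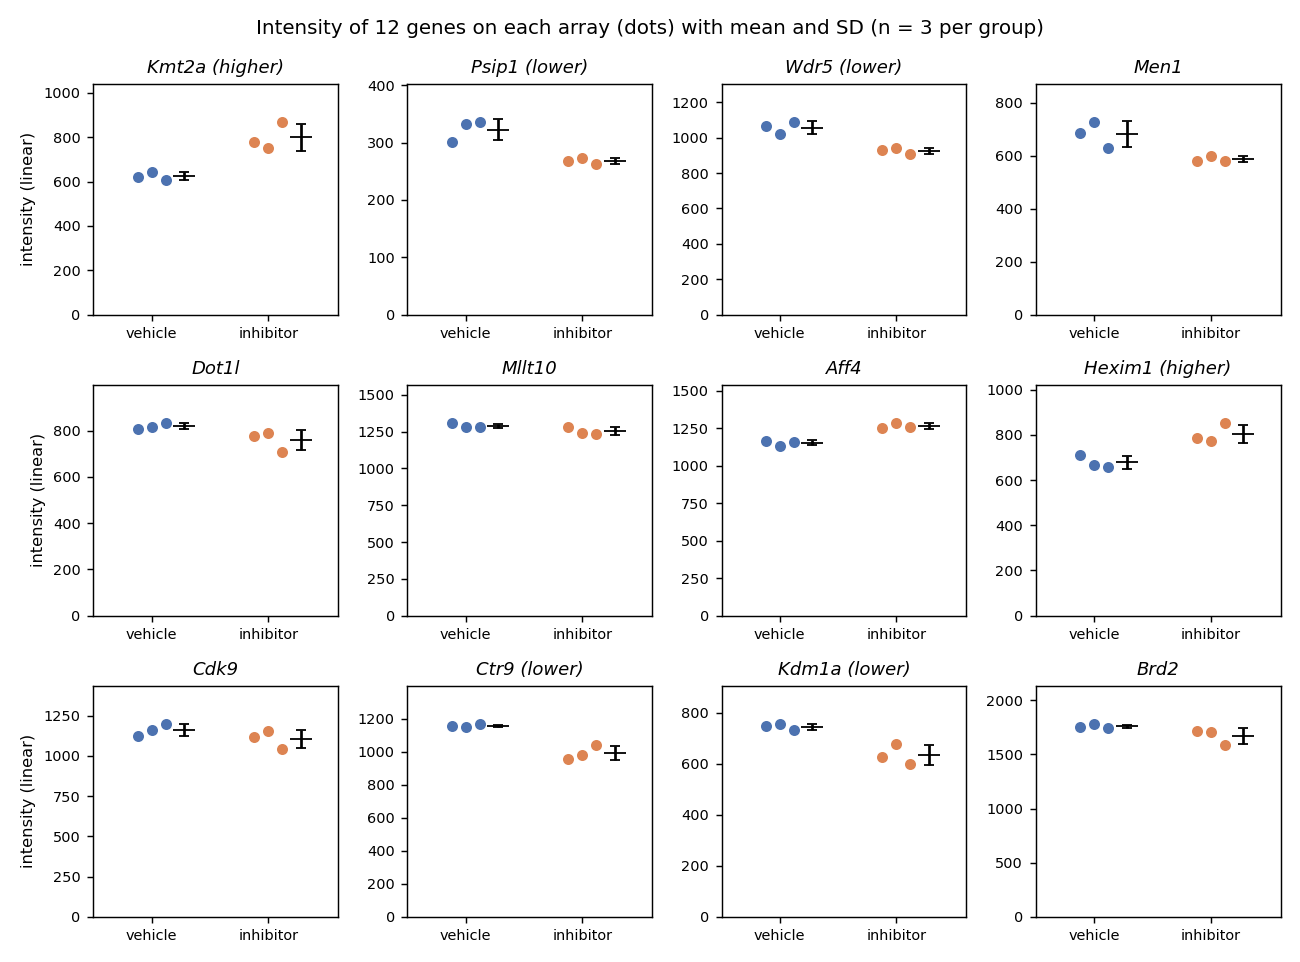
Intensity on a linear scale (y axis, from zero) of 12 of the genes on each of the 3 vehicle and 3 inhibitor arrays (dots), with the mean and SD of each group beside them in black. The 6 genes called are marked higher or lower in the panel titles. The dots of the 2 groups are separate for all panels except Mllt10 and Cdk9, and the distances are small against the height of the axis.

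The PAF complex travels with RNA polymerase II, supports ubiquitylation of histone H2B and binds the part of MLL that fusions keep. Ctr9, its large scaffold subunit, was the 1 gene of 5 called (20%, against 13.9% of all genes and 23.4% of those above the median intensity). It read 1157, 1152 and 1165 with vehicle, the tightest vehicle group of the called genes, and 956, 979 and 1043 with the inhibitor. Means were 1158 ± 6.31 and 992 ± 45.0 (SD, n = 3 each), and the log2 fold change was -0.22 ± 0.05 (SE, adjusted p = 0.0342). The groups of the other 4 listed genes overlapped. Their log2 fold changes were -0.06 for Paf1, -0.10 for Leo1, -0.05 for Cdc73, which encodes parafibromin, and 0.02 for Rtf1. Wdr61 was not among the 5 and was tested with the further elongation genes below. It was lower without overlap but not called (log2 fold change -0.14, adjusted p = 0.131 by limma).

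Among the 7 chromatin readers and other elongation factors, Kdm1a was the 1 gene called, and it was lower (14.3%, against 13.9% of all genes). It encodes the histone demethylase LSD1, and it read 747, 755 and 733 with vehicle and 629, 677 and 600 with the inhibitor. The groups were separate, with means of 745 ± 10.7 and 635 ± 39.0 (SD, n = 3 each). Its log2 fold change was -0.23 ± 0.06 (SE, adjusted p = 0.0459). The BET bromodomain genes Brd2 and Brd3, whose products read acetylated histones, both had a log2 fold change of -0.08. Brd2 read 1757, 1777 and 1745 with vehicle and 1713, 1707 and 1587 with the inhibitor, with inhibitor array 3 the lowest and the groups apart (adjusted p = 0.409). Supt5, the gene of the pausing and elongation factor SPT5, read 1701, 1790 and 1830 with vehicle and 1699, 1753 and 1612 with the inhibitor (-0.07, adjusted p = 0.495). Cbx8, a Polycomb chromodomain gene, had a log2 fold change of -0.18 with overlapping groups (adjusted p = 0.228). For Supt6, a histone chaperone gene, and Setd2, which encodes a histone H3 methyltransferase of transcribed genes, the values were 0.0017 and 0.06, and a further probe set of Setd2 gave 0.07.

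The 6 calls rest on few arrays. Leaving out an array kept the direction of each, but Kmt2a was not called when vehicle array 1, 2 or 3 or inhibitor array 1 was removed (adjusted p = 0.0584, 0.0574, 0.0727 and 0.057 by limma). For Psip1 this held for vehicle arrays 2 and 3 and inhibitor arrays 1 and 3 (0.11, 0.109, 0.0959 and 0.0825). Wdr5 was not called with any of the 6 removed (0.0613 to 0.165). Hexim1 was called only without inhibitor array 2 (0.0448, and otherwise 0.0618 to 0.14), as was Kdm1a (0.0247, and otherwise 0.102 to 0.148), and Ctr9 only without inhibitor array 3 (0.0309, and otherwise 0.064 to 0.122). Removing vehicle array 1 left 1 of the 39 genes called, removing vehicle array 2, vehicle array 3 or inhibitor array 1 left 0, removing inhibitor array 2 gave 6, and removing inhibitor array 3 gave 2. Where the count was 0, 9, 8 and 10 genes had an unadjusted p under 0.05. The share of all genes called moved alongside, from 13.9% to 7.9, 5.96, 6.14, 6.41, 14.2 and 9.28% for the 6 arrays, vehicle first. Centring each array on its median also left Kmt2a as the single call, with 9.28% of all genes called. Psip1 was then at 0.0568, Ctr9 at 0.0673, Kdm1a at 0.0965 and Wdr5 and Hexim1 at 0.124.

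**Figure D4:**
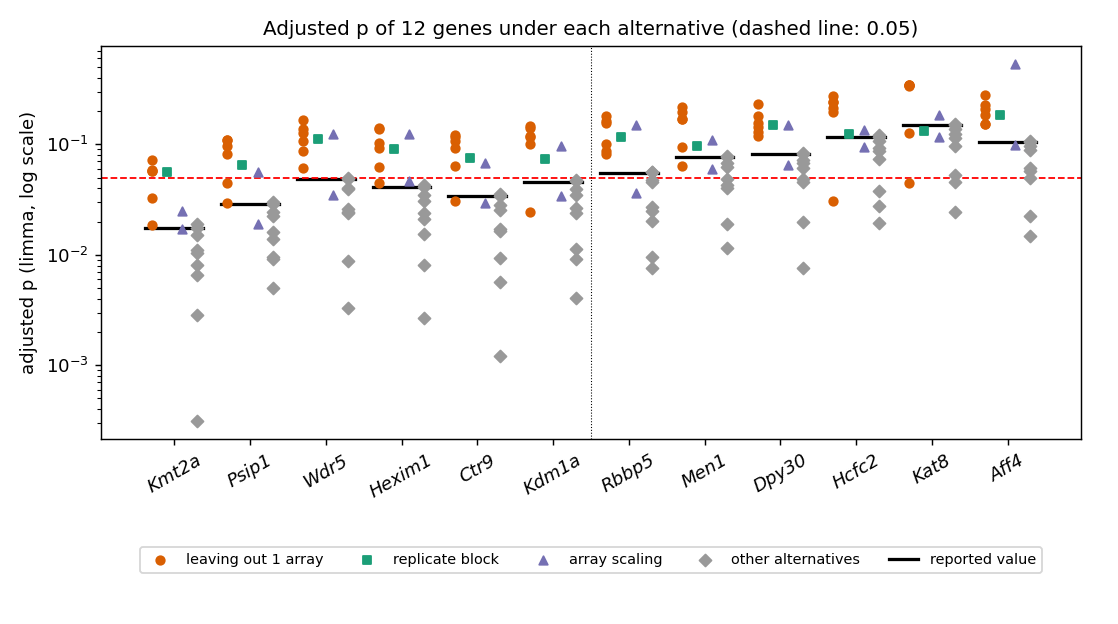
Adjusted p of limma (y axis, log scale) for the 6 called genes (left of the dotted line) and 6 others, as reported (black bars) and under each alternative: leaving out 1 array, the replicate number as a block, scaling between arrays, and other choices. The dashed red line is 0.05. All 6 called genes have alternatives above the line, and the 6 others have alternatives below it.

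Further listed genes of the same machinery gave shares of calls near the background. Of 13 other MLL family and COMPASS genes, 1 was called higher and 1 lower (15.4%, against 13.9% of all genes). The unadjusted p of limma was under 0.05 for 8 of the 13, against 27.2% of all genes and 41.8% of those above the median intensity. The groups did not overlap for 10 of the 13 (76.9%, against 32.9% and 52%), 7 of them lower and 3 higher. High shares by these 2 measures were thus not particular to the MLL and menin genes. Kmt2c, which encodes MLL3, rose from 581 ± 18.8 to 681 ± 29.9 (SD, n = 3 each), with 0.23 as its log2 fold change (adjusted p = 0.0391). Its paralog Kmt2d (MLL4) had a log2 fold change of 0.20 (adjusted p = 0.0815), and Kmt2b, the closest paralog of Kmt2a, one of -0.11 (adjusted p = 0.293). Pagr1a, which encodes a subunit of the MLL3 and MLL4 complexes, fell by 0.39 (adjusted p = 0.0192), more than any of the 39 genes. Tasp1, the gene of the protease that cleaves MLL, did not pass (-0.15, adjusted p = 0.2). Of 15 further genes of pause release and elongation tested, 0 were called higher by limma, where 1 had an unadjusted p under 0.05, and 2 lower (13.3%). These were Nelfcd, the gene of a subunit of the negative elongation factor (-0.21, adjusted p = 0.0446), and Hexim2, the paralog of Hexim1 (-0.31, adjusted p = 0.0415). The paralogs thus had opposite signs, at 0.24 and -0.31, and the difference between them was not tested.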

How the data were processed

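Per the submitters' processing notes, the authors made the deposited intensity values with Affymetrix Expression Console; not given in the sources used here are its version, the summarization method, any background correction or normalization and the genome build. The deposited table holds 35512 probe sets on 6 arrays, with values on a linear scale and no detection calls. Groups were taken from the treatment label and replicate numbers from the titles.

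Values below 16 were set to 16 and log2 was taken, with no further scaling. The platform's annotation gave 1 symbol for 21789 probe sets, several for 1621 and did not list 12102. Symbols were updated through gene numbers (21698 matched), and probe sets with several symbols were left out, among them 1 shared by Aff3 and 1 by Supt6. The brightest probe set of a gene was used. Of 19938 genes, 19847 were tested, 2-sided and without covariates, by lmFit and eBayes of limma 3.58.1 (R 4.3.3). P-values were adjusted over all of them by the Benjamini-Hochberg method, with a threshold of 0.05. SE and 95% intervals are those of the fit. Means and SD are of the deposited intensities. The fit was tested on simulated data. Every listed gene is given, with values by array for the called genes and for 12 genes listed in the design; some others are given by array after their values were seen (Rbbp5, Hcfc2, Aff3, Ell2 and Eaf1). The genes and lists were chosen with earlier results of these data known.

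Same-numbered arrays of the 2 groups had deviations correlated at 0.241, 0.133 and -0.0935 across genes, and the numbers were not taken as pairs. No label says whether the numbers pair samples. Alternatives tried were a replicate block, quantile normalization, median centring, filters on dim genes, averaged or singly tested probe sets, a robust prior with intensity trend, array weights, floors of 1, 32 and 64, log2 of the value plus 16, thresholds of 0.01 and 0.10, and leaving out each array. The number of arrays limits the precision.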

Additional observations from a re-analysis of the deposited data

How the results depend on the processing

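Precision is limited by 3 arrays a group and by changes of under 0.4 on the log2 scale. The causes of the changes in the counts of calls were not tested beyond what the choices themselves change. With a replicate block none of the 39 genes was called higher (0) or lower (0), although 13 had an unadjusted p under 0.05. In that setting 8.46% of all genes were called, 998 higher and 681 lower. Whether the replicate numbers pair the arrays is not stated in the labels. With median centring, 1 listed gene was higher and 0 lower, with a median of -0.11. Of all genes 9.28% were then called, 890 higher and 952 lower. More listed genes were called lower, 7 above the 25th percentile of intensity and with a floor of 64, 8 above the median and 9 with an intensity trend and robust prior or with array weights. In the same settings all genes called lower numbered 2207 above the median, 2220 with the trend and 2202 with array weights, which gave 2132 higher. The share of all genes called lower rose as well, from 6.75% in the main fit. It was 12.2% above the 25th percentile, 10.6% with a floor of 64 and 22.2% above the median. With the trend it was 11.2% and with array weights 11.1%. Above the median 36 listed genes were tested, and 38 above the 25th percentile or with a floor of 64. Rbbp5, Men1, Dpy30, Hcfc2, Kat8, Aff4 and Cbx8 were among the added calls. At an adjusted p under 0.01, 0 listed genes were higher and 0 lower, 12 having an unadjusted p under 0.05. Of all genes 662 were higher and 322 lower (4.96% called). At 0.10, 7 listed genes were lower, and 2029 of all genes (10.2%). Leaving out 1 array gave 0 to 2 listed genes higher and 0 to 4 lower, 788 to 1510 and 395 to 1300 of all genes, and a median between -0.088 and -0.050. Quantile normalization, floors of 1 and 32, the mean of probe sets, probe sets tested singly (listed genes alone) and log2 of the value plus 16 left these counts within 1.5 times.

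Of the 697 values of single genes under the alternatives, 18 changed sign, all of genes that were not called. With median centring Rtf1 had -0.0099 and Supt6 -0.032. With array weights Aff3 had 0.025, Eaf2 0.037 and Ccnt1 0.0015. Without 1 array, Aff3 lay between -0.038 and 0.033, Eaf2 between -0.10 and 0.020, Ccnt1 between -0.073 and 0.0089, Ccnt2 between -0.060 and 0.015, Rtf1 between -0.0034 and 0.052 and Supt6 between -0.053 and 0.061.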

Other observations

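Of 6 genes tested that add or remove ubiquitin on histone H2B, the mark that the PAF complex supports and that stimulates DOT1L, 1 was called (16.7%, against 13.9% of all genes). Ube2b, which encodes a ubiquitin-conjugating enzyme, rose from a mean intensity of 1051 to 1229, with 0.23 as its log2 fold change (adjusted p = 0.0316 by limma). The other 5 did not pass. The ubiquitin ligase genes Rnf20 and Rnf40 had log2 fold changes of -0.01 and -0.09, the paralog Ube2a 0.00 (-0.0021), Wac 0.05 and the deubiquitinase gene Usp22 -0.20 (adjusted p = 0.0591).

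Of 6 further genes of Polycomb repressive complex 1 tested, the complex in which CBX8 works, 0 were called by limma and 1 had an unadjusted p under 0.05. That was Ring1, a ligase for histone H2A, with a log2 fold change of -0.22 (adjusted p = 0.0604). Rnf2 and Bmi1, genes of the same complex, had -0.05 and 0.04, with 95% intervals of -0.17 to 0.08 and -0.07 to 0.16.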
